A study of Drosophila melanogaster with 2 samples.

Results

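Of 3607 Hr96 peaks called in whole adult female flies, 674 (18.7%, exact 95% interval 17.4 to 20) lay at the promoters of genes on both strands at once. A peak was counted here when its summit, the position of strongest enrichment, was within 500 bp of the transcription start sites (TSSs) of protein-coding genes on both strands, with the genes different from each other. By the same distance, 2217 peaks (61.5% of all) lay at a protein-coding promoter of any kind, and the 674 shared promoter peaks made up 30.4% of those. A further 1502 peaks were at the promoter of 1 gene, 41 at promoters of several genes on 1 strand, and 1390 were farther than 500 bp from every protein-coding TSS. The shared promoter peaks covered 604 distinct gene pairs and 1206 genes, which is 47.7% of the 2526 genes with a summit within 500 bp of a TSS. Those 2526 genes are 18.1% of the 13945 protein-coding genes on the main chromosome arms.

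The data are from chromatin immunoprecipitation followed by sequencing, in 2 biological replicates numbered 1 and 3 that form 1 group. Both came from a transgenic Drosophila melanogaster line, Hr96-GFP, that stably carries Hr96 with GFP at its C-terminus. The animals were adult females of unknown age, taken whole, so all tissues are mixed and no tissue can be assigned to a peak. An antibody to GFP was used to pull the fusion down from chromatin sonicated to a size range of 200 to 800 bp. Both samples carry the fusion and no sample without it was analysed here, so signal unrelated to Hr96 cannot be told apart from Hr96 binding. In the text below, a bound gene or gene pair is one with a peak in this precipitation. With 1 group of 2 samples there is no comparison over samples, and peaks are not replicates. Shares and medians are therefore descriptions with no test, and the intervals beside shares cover counting error only.

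Genes in the compact fly genome often lie head to head, with one transcribed leftward and its neighbour rightward from TSSs a short way apart. Such divergent pairs share a stretch of open, nucleosome-poor DNA, and many of them are housekeeping genes whose promoters hold elements such as the DNA replication-related element (DRE), bound by the factor DREF, or Motif 1, bound by M1BP. Hr96 is a nuclear receptor of the fly that acts in the handling of sterols and storage fat and in defence against xenobiotics. Because the 2 promoters of such a pair are so close, a peak between them is counted for both genes, and the data cannot say which of the 2 genes, if either, it serves.

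The DNA between the TSSs is short enough to be read whole at many of these peaks. Of 536 gaps with the summit between the TSSs, 470 held no annotated exon. The stretches below are such gaps of at most 300 bases. They were read 5′ to 3′ on the plus strand of dm6 from the RefSeq copy of the assembly. The minus-strand gene starts just before the first base and the plus-strand gene just after the last. The first 3 are shown because they had the highest signals among gaps that could be printed, and capitals mark 11 bases centred on the summit. Tcs5/CHMP2B is at chr3L:5139396-5139618, Atat/Shc at chr3L:9426759-9427009 and CG7601/CIA30 at chr3R:29736746-29736964.
Tcs5/CHMP2B: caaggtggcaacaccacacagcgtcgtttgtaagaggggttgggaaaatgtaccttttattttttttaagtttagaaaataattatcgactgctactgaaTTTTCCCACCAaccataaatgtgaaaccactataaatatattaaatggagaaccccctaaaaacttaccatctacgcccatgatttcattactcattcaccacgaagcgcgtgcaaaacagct
Atat/Shc: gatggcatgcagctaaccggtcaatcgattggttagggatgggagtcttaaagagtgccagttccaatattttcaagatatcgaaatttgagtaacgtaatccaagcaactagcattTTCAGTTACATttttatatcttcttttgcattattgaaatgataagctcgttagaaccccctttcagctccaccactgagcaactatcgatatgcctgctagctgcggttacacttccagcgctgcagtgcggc
CG7601/CIA30: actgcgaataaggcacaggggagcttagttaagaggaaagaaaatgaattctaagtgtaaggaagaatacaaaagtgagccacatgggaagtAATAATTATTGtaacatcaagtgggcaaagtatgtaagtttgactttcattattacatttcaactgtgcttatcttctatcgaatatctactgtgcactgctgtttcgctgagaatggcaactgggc

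In all 3 gaps the summit was near the middle, at base 106 of 223, base 123 of 251 and base 98 of 219. Their GC contents were 38.1%, 43.0% and 37.9%. None of them held the nuclear receptor core AGGTCA or the Motif 1 core GGTCACAC on either strand. The CG7601/CIA30 gap held 1 AGTGCA, the letters of the nuclear receptor core in another order. The Atat/Shc gap held 1 DRE, spelled TATCGATA, which starts at base 202 of the gap and is centred 83 bp to the right of the summit.

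The next 3 stretches are shown because each holds a DRE between the TSSs, marked in capitals, at a distance from the summit that differs between them. RpS25/CG4820 is at chr3R:11216288-11216534, Ttc19/Acn at chr2L:19045149-19045354 and Fibp/Deaf1 at chr3L:19817968-19818173.
RpS25/CG4820: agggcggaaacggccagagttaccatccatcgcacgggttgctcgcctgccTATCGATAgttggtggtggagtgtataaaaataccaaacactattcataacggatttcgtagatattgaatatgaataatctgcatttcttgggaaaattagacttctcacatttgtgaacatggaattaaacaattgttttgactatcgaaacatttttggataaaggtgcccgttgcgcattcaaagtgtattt
Ttc19/Acn: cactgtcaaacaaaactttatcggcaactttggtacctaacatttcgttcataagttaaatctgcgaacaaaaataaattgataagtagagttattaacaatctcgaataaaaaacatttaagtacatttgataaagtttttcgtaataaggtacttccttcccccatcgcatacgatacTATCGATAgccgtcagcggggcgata
Fibp/Deaf1: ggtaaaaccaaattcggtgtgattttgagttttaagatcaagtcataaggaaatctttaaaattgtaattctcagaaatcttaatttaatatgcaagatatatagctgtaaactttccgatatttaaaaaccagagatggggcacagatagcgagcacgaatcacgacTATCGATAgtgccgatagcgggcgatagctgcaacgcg

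The DRE was centred 7 bp to the left of the summit at RpS25/CG4820, which encodes a ribosomal protein on the minus strand. It was 69 bp to the right at Ttc19/Acn and 63 bp to the right at Fibp/Deaf1, the latter including the gene of the transcription factor Deaf1. The IDR signals, the peak caller's measure of strength, of these 3 peaks were 387, 325 and 276. A last stretch is shown for the Motif 1 core. It lies between fs(1)h, a bromodomain protein, and mys, the beta subunit of integrin, at chrX:8061437-8061644, with the core in capitals as it reads on the plus strand, centred 16 bp to the left of the summit.
fs(1)h/mys: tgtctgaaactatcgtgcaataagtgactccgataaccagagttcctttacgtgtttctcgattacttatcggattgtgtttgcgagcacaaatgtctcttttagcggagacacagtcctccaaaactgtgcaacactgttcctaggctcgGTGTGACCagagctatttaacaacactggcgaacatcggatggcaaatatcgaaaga

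The strengths of the peaks come from the lists the authors deposited. Signal is the enrichment their peak caller gave each peak, on a scale set separately in each list, so values are compared only within a list, with ranks counted from the strongest. The IDR list holds the peaks chosen by the irreproducible discovery rate, and its signals equalled those of the pooled list for all 3607 peaks. Each replicate has its own list of 30000 peaks and background regions, in which a peak was matched when its summit lay within 100 bp. The depth behind a peak is unknown, because the sources used here give no read totals.

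The strongest shared promoter peak lay between Pdrg1 and Pal1, an enzyme of peptide amidation, on 2R at 9959708 to 9960099 (dm6). Its signal was 1245 in the IDR and pooled lists (rank 10), 922 in replicate 1 (rank 9) and 319 in replicate 3 (rank 20). The summit was 197 bp to the right of the Pdrg1 TSS and 149 bp to the left of the Pal1 TSS. This peak was therefore among the strongest of every list, and it sat inside the gap.

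The second was Tcs5/CHMP2B on 3L at 5139336 to 5139673. CHMP2B encodes a subunit of the ESCRT-III membrane remodelling complex. The peak had a signal of 1144 (rank 16) in the IDR list, 790 (rank 16) in replicate 1 and 355 (rank 14) in replicate 3, again close in rank across lists. Its TSSs are 224 bp apart and the summit was 106 bp from one and 118 bp from the other. Atat encodes the alpha-tubulin acetyltransferase and Shc a signalling adaptor of receptor tyrosine kinases. Their shared peak on 3L at 9426709 to 9427039 had signals of 1058 (rank 19), 813 (rank 15) and 242 (rank 49) in the IDR list, replicate 1 and replicate 3. It ranked lower in replicate 3 than in replicate 1.

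CIA30 encodes an assembly factor of respiratory complex I and shares its promoter region with CG7601 on 3R at 29736674 to 29737015. The signals there were 1040 (rank 20) in the IDR list, 760 (rank 18) in replicate 1 and 276 (rank 30) in replicate 3. At the next 2 peaks the TSSs almost touched and the summit fell outside the gap. CG11309/CG7632 on 3L at 21304400 to 21304741 has TSSs 39 bp apart, and the summit was 70 bp to the left of the minus-strand TSS, downstream of the start of CG11309. Its signals were 993 (rank 22), 691 (rank 21) and 307 (rank 22) in the IDR list, replicate 1 and replicate 3. CG8372/CG8360 on 2L at 8212848 to 8213179 has TSSs 57 bp apart, and the summit was 44 bp to the right of the plus-strand TSS, downstream of the start of CG8360. Its signals were 955 (rank 23), 681 (rank 22) and 276 (rank 31).

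Chro encodes Chromator, a chromodomain protein, and Ssl1 a subunit of the transcription factor TFIIH. Their peak on 3L at 22878723 to 22879069 had signals of 915 (rank 24) in the IDR list, 675 (rank 23) in replicate 1 and 244 (rank 48) in replicate 3. mRpS23, a protein of the mitochondrial ribosome, and CenG1A on 2L have TSSs 492 bp apart, the widest gap of the 10 strongest. The peak there, at 13835311 to 13835610, had signals of 903 (rank 26), 634 (rank 29) and 268 (rank 35), and its summit was 391 bp from the mRpS23 TSS and nearer to that of CenG1A. CG3437/CG3552 on 3L at 9457648 to 9457944 had signals of 825 (rank 36), 590 (rank 35) and 234 (rank 55). RpL32, a protein of the large ribosomal subunit, and CG7943 on 3R at 30046095 to 30046503 had signals of 807 (rank 39), 638 (rank 28) and 175, the last one outside the 100 strongest of replicate 3. All 10 peaks were matched in both replicates, and 8 of the 10 had the summit between the TSSs.

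**Figure D1:**
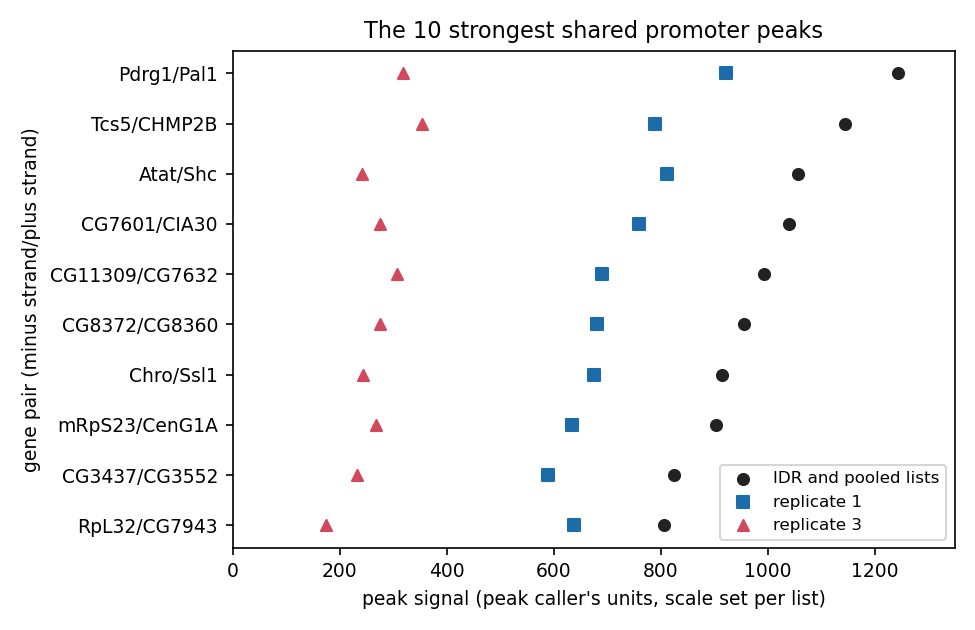
Signal (x axis, in the peak caller's units, with a scale set per list) of the 10 strongest shared promoter peaks (y axis, named minus-strand gene first) in the IDR and pooled lists (circles), replicate 1 (squares) and replicate 3 (triangles). The IDR signals run from 807 to 1245, those of replicate 1 from 590 to 922 and those of replicate 3 from 175 to 355, and at every peak the 3 symbols keep the same order.

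Over all 674 shared promoter peaks the IDR signal ran from 59.9 to 1245 with a median of 136. The median was 103 for the 1502 peaks at the promoter of 1 gene and 90.8 for the 1390 peaks away from promoters. The median ranks were 1233 for shared promoter peaks, 1801 for one-gene promoter peaks and 2112.5 for peaks away from promoters. The strongest peak of the whole list was at a one-gene promoter, with a signal of 2692, so the higher median did not come with the highest values. Shared promoter peaks were 25 of the 100 strongest peaks (25%), 28.5% of the next 400, 28.2% of the next 500, 20.6% of the next 1000 and 11.7% of the last 1607. One-gene promoter peaks held 50 of the 100 strongest and between 40.7% and 44.6% of the other classes. The shared kind thus thinned toward the weak end of the list, while the one-gene kind made up a similar share of the weakest classes.

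**Figure D2:**
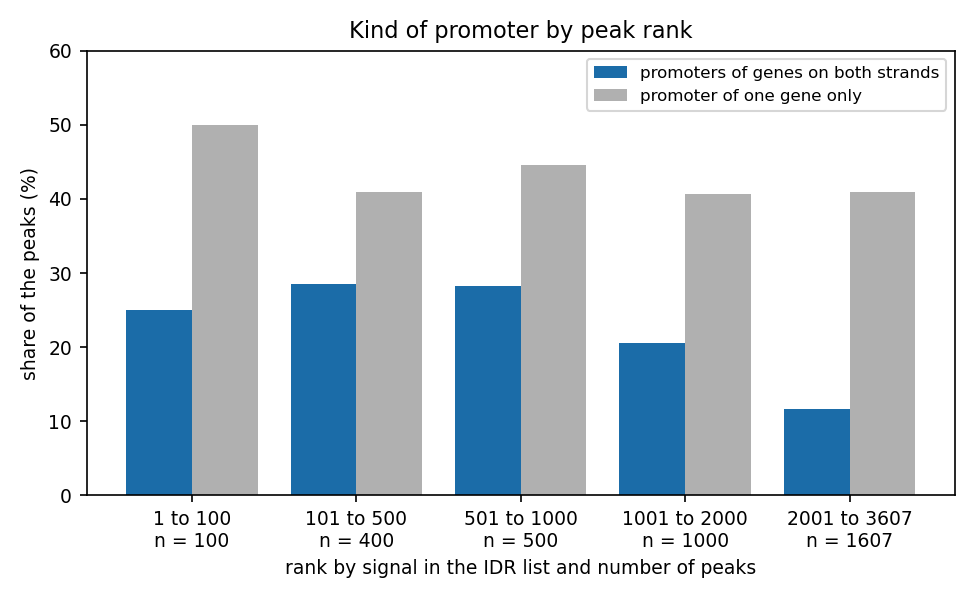
Share of the peaks (y axis, percent) at promoters of genes on both strands and at the promoter of 1 gene only, by rank of signal in the IDR list (x axis, with the number of peaks in each class). The blue bars fall from 28.5% in the second class to 11.7% in the weakest, and the grey bars stay between 40.7% and 50%.

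The same order of medians was seen within each replicate, with a smaller gap in replicate 3. In replicate 1 the median signal was 95.6 for the 617 matched shared promoter peaks and 67.9 for the 1353 matched one-gene promoter peaks. In replicate 3 it was 47.0 for 582 shared and 42.6 for 1332 one-gene promoter peaks. The median ranks in replicate 1 were 1147 and 1760, and in replicate 3 they were 1604 and 1872.5. The 2 kinds also differ in how close their summits are to a TSS. Among summits within 50 bp of the nearest TSS the median IDR signals were 128 (n = 220) for shared and 100.6 (n = 384) for one-gene promoter peaks. At over 50 to 100 bp they were 143 (n = 211) and 95.2 (n = 283), at over 100 to 200 bp 151 (n = 200) and 120 (n = 353), and at over 200 to 500 bp 121 (n = 43) and 111 (n = 482). Shared promoter peaks had the higher median in all 4 distance classes.

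Both replicates held a matching summit for 537 of the 674 shared promoter peaks (79.7%, interval 76.4 to 82.7), against 80.1% of all IDR peaks and 79.6% of one-gene promoter peaks. Recurrence by this measure was therefore near the background. When the match had to be among the 3607 strongest peaks of each replicate, the share was 59.9% for shared, 52.1% for one-gene and 50.7% for all IDR peaks. Across the 537 peaks matched in both, log2 signal in replicate 1 and log2 signal in replicate 3 were correlated with r = 0.74 (Pearson) and rho = 0.72 (Spearman). The points share 1 control file, and signals at strong peaks are high in both, so these are descriptions. The rho was 0.56 for 1196 one-gene promoter peaks and 0.56 for all 2888 IDR peaks matched in both.

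A few strong peaks had no partner in one replicate. CG13390/CG17294 on 2L had an IDR signal of 424 (rank 162) and 183 in replicate 3, with no summit within 100 bp in replicate 1. dpr14/spidey on X, the latter a steroid dehydrogenase, had 420 (rank 167) and 170 in replicate 3, and none in replicate 1. Acbp1, an acyl-CoA binding protein, and Piezo, a mechanically gated channel, on 2L had 415 (rank 173) and 319 in replicate 1, and none in replicate 3. The missing partner was thus not always in the same replicate. Another 12 peaks (1.78%, interval 0.92 to 3.09) were matched in neither, against 1.14% of all IDR peaks and 0.87% of one-gene promoter peaks. The strongest of those were Ctf4/CG8067 on 2R with 271 (rank 430), p/CG8032 on 3R with 150 (rank 1081) and GluProRS/AP-1sigma on 3R with 133 (rank 1276). GluProRS, the tRNA synthetase for glutamate and proline, has a second member peak, and that one was matched in both, with 118 in replicate 1 and 75.7 in replicate 3.

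In 656 of the 674 peaks (97.3%, interval 95.8 to 98.4) the genes were divergent, with the nearest minus-strand TSS to the left of the nearest plus-strand TSS. In the other 18 the transcribed parts overlapped at their 5′ ends. Among all annotated opposite-strand pairs with TSSs within 1000 bp, 2616 of 2720 were divergent, so most pairs have this form with or without a peak. At the divergent peaks the TSSs were 1 to 830 bp apart with a median of 298 bp. The middle 50% of values ran from 220 to 402 bp. The widest were the tetraspanin genes Tsp42Eq and Tsp42Er on 2R at 830 bp, with signals of 139 in the IDR list and 113 in replicate 1 and no match in replicate 3. Next came cmet and cana on 2L at 778 bp, both genes of CENP-E-like kinesins of the mitotic spindle. That peak was weak, at 76.7 in the IDR list, 36.7 in replicate 1 and 29.8 in replicate 3. The rule caps the spacing at 1000 bp, since a summit must be within 500 bp of both TSSs.

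The closest TSSs were those of Atg6, the fly Beclin 1 of autophagy, and Pisd, a phosphatidylserine decarboxylase, on 3R, which are 1 bp apart. That pair had 2 peaks, one with an IDR signal of 116 that was matched in neither replicate, the other with 65.3, and 37.3 in replicate 1 and 36.7 in replicate 3. At Ctu2, a tRNA thiolation protein, and swm on 2L, the transcribed parts overlap by 2 bp, and the signals were 65.5, 34.6 and 29.8. Of these 3 peaks the first stood above the median of all IDR peaks, 103, and the other 2 near the low end of the list. The 18 peaks at overlapping genes had a median IDR signal of 104, and their TSSs were set back past each other by 2 to 482 bp. The strongest was CG4741/Adck1 on 2R with 434 in the IDR list (rank 157), 333 in replicate 1 and 107 in replicate 3. Next came CG43345 with mAcon1, mitochondrial aconitase, on 2L with 396 (rank 199), 280 and 109. Pgk, the glycolytic phosphoglycerate kinase, with Bacc on 2L had 223 (rank 603) and 134 in replicate 1, and no match in replicate 3.

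The summit lay between the TSSs at 536 of the 656 divergent peaks (81.7%, interval 78.5 to 84.6). It lay to the left of both at 62 and to the right of both at 58, so the strays were spread evenly over the sides. The summit was nearer to the minus-strand TSS at 313 peaks and nearer to the plus-strand TSS at 343. Measured along the gap from the minus-strand TSS, the summit stood at a median fraction of 0.54, with the middle 50% of values between 0.30 and 0.76. With the gap cut into 3 equal parts, 202 of 536 summits (37.7%) were in the middle part. The nearer TSS was a median of 87 bp away for summits inside the gap. In gaps wider than 400 bp, 89 of 162 inside summits (54.9%) had a TSS within 150 bp and 59 (36.4%) were in the middle part. In these gaps the stretches within 150 bp of a TSS make up much of the length and can reach into the middle part, so neither share shows a preferred place.

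**Figure D3:**
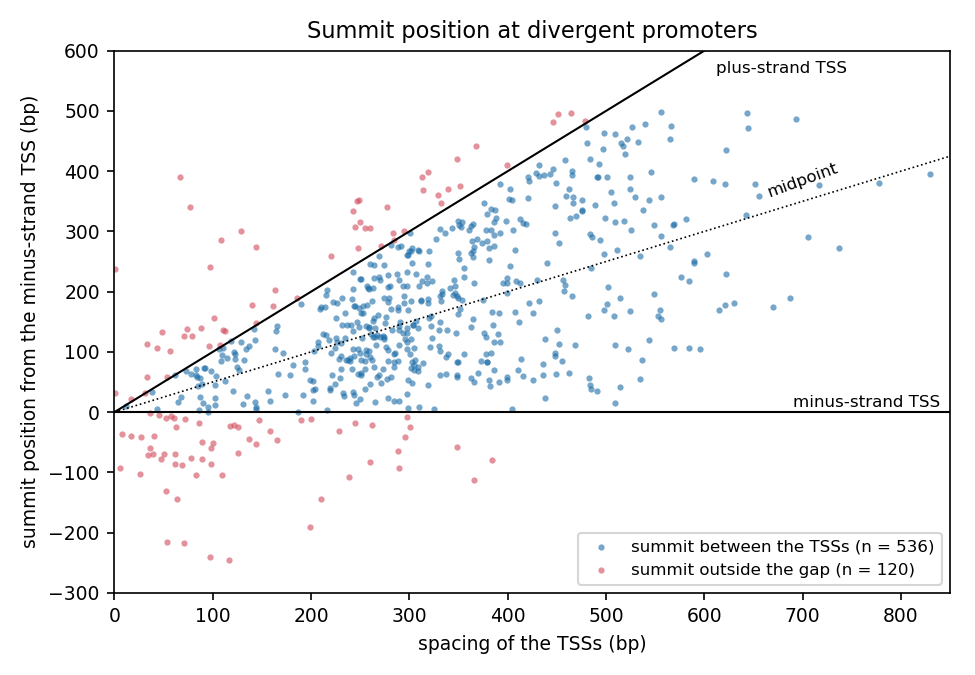
Position of the summit relative to the minus-strand TSS (y axis, bp) against the spacing of the TSSs (x axis, bp) for the 656 divergent shared promoter peaks, 1 point per peak. Points between the 2 solid lines are the 536 summits inside the gap, points outside them are the other 120, most of them at short spacings, and the dotted line is the midpoint of the gap.

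The share of summits inside the gap rose with its width, from 29.7% at 0 to 100 bp to 62.9% at over 100 to 200 bp, 87.5% at over 200 to 300 bp, 90.9% at over 300 to 400 bp and 97.2% at over 400 to 600 bp. A wider gap holds more of the permitted positions, so part of this rise follows from the rule. The median IDR signal was highest for TSSs over 200 and up to 300 bp apart, at 166 (n = 192). In the 2 closer classes it was 148 (n = 74) and 137 (n = 70), and in the next 2 wider ones 130 (n = 154) and 109 (n = 145). The peak intervals, a median of 416 bp wide, covered both TSSs at 254 of 674 peaks (37.7%). At 378 peaks (56.1%) the summit was within 250 bp of both TSSs. The limit of 500 bp cut through a continuous range. Just inside it were app/CG32100 on 3L, with the farther TSS 498 bp away and a signal of 225, and CG13531/RpL23 on 2R, also at 498 bp, with 117. Just outside were Nbr/Noc2 on 2L at 503 bp with 94.2 and wal/CG13197 on 2R at 509 bp with 103.

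The annotation holds 2720 pairs of protein-coding genes on opposite strands whose closest TSSs are within 1000 bp. Of these, 629 pairs (23.1%) had an IDR summit within 500 bp of both TSSs. The share was 23.1% for the 2616 divergent pairs and 23.1% for the 104 overlapping pairs, the latter with a wide interval of 15.4 to 32.4. Among divergent pairs the share was 22.9% (interval 18.9 to 27.2) at spacings of 0 to 100 bp, 21.2% (17.0 to 25.8) at over 100 to 200 bp, 32.7% (28.7 to 36.9) at over 200 to 300 bp, 33.5% (28.9 to 38.4) at over 300 to 400 bp and 25.2% (21.3 to 29.4) at over 400 to 600 bp. At over 600 to 1000 bp it was 2.84%. Few positions lie within 500 bp of both TSSs in that class, and how much of the low share this accounts for was not tested. Pairs over 200 and up to 400 bp apart thus carried a peak more often than closer pairs, although their window within 500 bp of both TSSs is narrower.

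**Figure D4:**
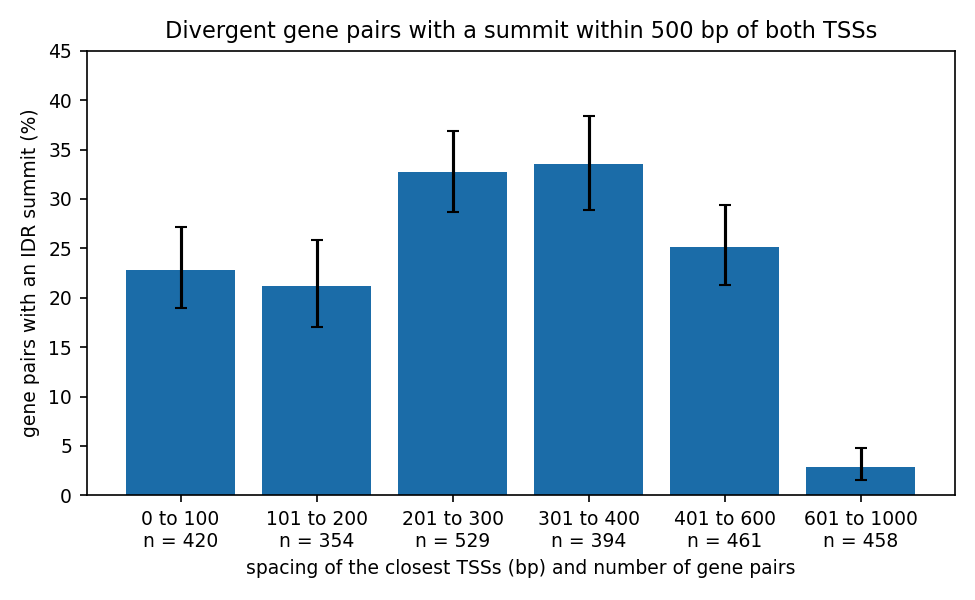
Share of annotated divergent gene pairs (y axis, percent) with an IDR summit within 500 bp of both TSSs, by the spacing of their closest TSSs (x axis, bp, with the number of pairs), with exact 95% intervals for counting error as error bars. The highest bars are 32.7% and 33.5% at over 200 to 400 bp, and the bar for the widest spacings is the lowest at 2.84%, where fewer positions satisfy the rule.

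Genes with an opposite-strand neighbour within 1000 bp were bound more often than genes without one. A summit within 500 bp of a TSS was present at 1481 of 5141 such genes (28.8%) and at 1045 of 8804 other genes (11.9%). Among genes with a single annotated TSS the shares were 23.3% (820 of 3520) and 7.29% (490 of 6726). A peak between 2 genes counts for both, which raises the share among neighbours by construction. The mean number of TSSs per gene was similar, at 1.47 with a neighbour and 1.37 without.

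The X chromosome had fewer of these peaks than the large autosomal arms. They were 64 of 620 IDR peaks on X (10.3%), against 134 of 654 on 2L (20.5%), 118 of 690 on 2R (17.1%), 155 of 731 on 3L (21.2%) and 202 of 907 on 3R (22.3%). Chromosome 4 had 1 of 5. An opposite-strand neighbour was present for 36.2% of genes on X and for 36.5% to 37.5% on the 4 large autosomal arms. The spacing of the pairs was not compared between arms, and whether the supply of pairs plays a part was not tested. Of the annotated pairs, 13.4% carried a peak on X and 20.5% to 29.0% on those arms, while 14.7% of all genes were bound on X and 17.4% to 20.3% there. The median IDR signal of shared promoter peaks on X was 129, against 127 for one-gene promoter peaks. On 2L the same medians were 146 and 98.4, on 2R 125 and 102, on 3L 145 and 98.7 and on 3R 136 and 100.6. The gap in strength seen on the autosomal arms was thus nearly absent on X, where the median rests on 64 peaks.

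Gene families are best read against the genes that could be at a shared promoter peak, those with an opposite-strand neighbour. Over all genes, 1206 of 5141 such genes (23.5%) were at one. No intervals were computed for the families, and many of them are small. Of 86 cytosolic ribosomal protein genes, 61 (70.9%) were bound, against 18.1% over all genes. Of the 53 with a neighbour, 28 (52.8%) were at a shared promoter peak. Their 33 peaks had a median rank of 420, against 1233 for all shared promoter peaks. RpS27/Nup37 on 3R, the latter a nuclear pore protein, had signals of 708 in the IDR list (rank 50), 563 in replicate 1 and 143 in replicate 3, below only RpL32/CG7943 in the family. Of 75 mitochondrial ribosomal protein genes 59 have such a neighbour. 21 of the 75 were bound, and 20 of the 59 (33.9%) were at a shared promoter peak. Their median rank was 1528. mRpL23/CG9004 on 3L had 672 (rank 54), 419 and 250, second to mRpS23/CenG1A. Both shares stood above the 23.5% over all genes, the cytosolic one by more. The mitochondrial one rests on 59 genes and is not set apart from 23.5% here. Cytosolic genes were also bound more often at promoters of any kind, so their high share is not particular to shared promoters.

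Other families of gene expression stood on both sides of 23.5%. Of 33 tRNA synthetase genes 8 were bound, and 8 of the 23 with a neighbour (34.8%) were at a shared promoter peak, led by SerRS/CG17260 on 2L with 234 in the IDR list, 133 in replicate 1 and 94.5 in replicate 3. Of 53 RNA polymerase and TAF genes 16 were bound, and 13 of the 36 with a neighbour (36.1%) were at a shared peak. Bdp1, a subunit of the RNA polymerase III factor TFIIIB, with CG6565 on 2L had 732 (rank 47), 542 and 188. Brf, another subunit of TFIIIB, with sds22 on 3R had 363, 266 and 104, so both TFIIIB genes had peaks among the 500 strongest of the IDR list. Of 29 Mediator genes 7 were bound, and 5 of the 21 with a neighbour (23.8%) were at a shared peak, with MED30/Rev1 on 3L at 364, 255 and 109 and elm/MED27 on 3R at 262, 202 and 65.4. Of 44 translation initiation factor genes 10 were bound, and 4 of the 21 with a neighbour (19.0%) were at a shared peak. RpL28/eIF1 on 3L joins a ribosomal protein and an initiation factor, with 491 (rank 120), 334 and 150. eIF4EHP/CG18428 on 3R had 409 (rank 183) and 258 in replicate 1, with no match in replicate 3. A second shared peak of that pair, at 237 in the IDR list, was matched in both, with 179 in replicate 1 and 172 (rank 112) in replicate 3.

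For splicing, DNA replication and repair, and proteasome genes the median ranks of the shared promoter peaks were 1935.5, 1139.5 and 2031, against 1233 overall. Of 27 splicing factor genes 6 were bound, and 5 of the 26 with a neighbour (19.2%) were at a shared peak, with Sf3b6/Tnpo on 3L at 185 and Msh6/Prp31 on 3L at 144 in the IDR list. Both were unmatched in replicate 3, with 129 and 127 in replicate 1. Of 49 DNA replication and repair genes 11 were bound, and 9 of the 34 with a neighbour (26.5%) were at a shared peak. Their strongest was dup, the fly Cdt1 of replication licensing, with SRPK on 2R at 240 in the IDR list, 212 in replicate 1 and 14.9 in replicate 3, far down the list of the latter at rank 10808. Rad60/EloA on 3R had 197, 145 and 50.3. Of 48 proteasome genes just 4 were bound, below the 18.1% over all genes at 8.33%, and these were 4 of the 26 with a neighbour (15.4%). Hat1/Rpn5 on 3R, a histone acetyltransferase with a proteasome lid subunit, had 336 (rank 273), 240 and 106. Slbp/Rpn2 on 3R, the histone mRNA stem-loop binding protein with a proteasome base subunit, had 173 and 143 in replicate 1 and was unmatched in replicate 3.

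Among genes of energy supply, 17 of 83 oxidative phosphorylation genes were bound, and 13 of the 45 with a neighbour (28.9%) were at a shared peak. TppII/ND-MWFE on 2R had 285 (rank 377) and 251 in replicate 1, with no match in replicate 3. ND-SGDH/RhoGAP68F on 3L had 269 (rank 435) and 108 in replicate 3, with no match in replicate 1. Each of these complex I subunit genes thus rested on 1 replicate by summit position. Of 29 vacuolar ATPase genes, which acidify organelles, 11 were bound and 6 of the 12 with a neighbour were at a shared peak, with CG8187/Vha36-1 on 2R at 230, 152 and 89.5 and Vha55/Snx3 on 3R at 213, 164 and 49.4. Of 18 mitochondrial import genes, 7 of them with a neighbour, 1 was bound, Tom7 with CG8229 on 2R, at 300 in the IDR list, 227 in replicate 1 and 74.3 in replicate 3.

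Autophagy genes were bound in 8 of 20 cases (40.0%), against 18.1% over all genes. Of the 16 with a neighbour, 7 (43.75%) were at shared peaks, against 23.5% over all genes. These counts are small and have no interval. Xe7/Atg17 on 3R had 391 (rank 202), 253 and 140. ERR, an estrogen-related nuclear receptor of carbohydrate metabolism, with Atg18a on 3L had 329 (rank 287), 229 and 102. Atg2, Atg9, Atg12, Atg8a and Atg6 followed, with IDR signals of 230, 111, 74.5, 72.8 and 116 for the strongest peak of each. The list thus spans from the strong to the weakest part of the peaks.

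The metabolic families for which Hr96 is known differ in how many genes have an opposite-strand neighbour. These were 13 of 31 triacylglycerol metabolism, 5 of 27 sterol handling and 29 of 140 xenobiotic response genes, against 5141 of 13945 over all genes. Of 31 triacylglycerol metabolism genes 18 were bound. Of the 13 with a neighbour 6 (46.2%) were at a shared promoter peak, against 23.5% over all genes. This share rests on 13 genes and no interval was computed, so it is not set apart from the 23.5%. Agpat2, an acyltransferase of glycerolipid synthesis, with prg on 2L had 144 in the IDR list, 82.3 in replicate 1 and 64.0 in replicate 3. yki, the coactivator of the Hippo pathway, with Gpat4, another such acyltransferase, on 2R had 135, 118 and 18.3. The lipase genes bmm and Hsl were also among the 6, with bmm/Tdrd3 at 111 and Ate1/Hsl at 67.9 in the IDR list. Of 27 sterol handling genes 3 were bound. 5 of the 27 have a neighbour and 0 were at a shared peak. Over all 27 this allows up to 11.1%, against 8.65% over all genes. The 5 with a neighbour are too few to set apart from the 23.5% over all genes with one. 1 gene, SCAP, is in both of these lists. Of 140 xenobiotic response genes 18 were bound, and 2 of the 29 with a neighbour (6.90%) were at a shared peak. They were Keap1, the sensor of electrophiles, with kuk on 3R at 169, 104 and 62.2, and Ugt316A1, a glycosyltransferase, with Sfxn2 on 3L at 103, 75.8 and 21.3. Of the shared promoter peaks of these 3 families, Keap1/kuk alone was among the 1000 strongest, at rank 910.

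The DNA at the summits was AT-rich. In windows that reach 100 bp to either side of the summit the GC content was 36.3% for shared promoter peaks, 41.9% for one-gene promoter peaks, 40.2% for all IDR peaks and 42.3% at 19253 protein-coding TSSs. The middles of divergent gaps were AT-rich with or without a peak, at 33.0% for 605 bound and 34.2% for 2011 unbound pairs. Low GC was thus shared with unbound gaps. Matches to motifs that consist mainly of A and T, or of G and C, move with this composition, and its part in the shares below was not tested. A match is a string of letters on either strand, not a shown binding site.

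A DRE (TATCGATA) was in the window of 70 of 674 shared promoter peaks (10.4%, interval 8.19 to 12.9), against 4.46% of all IDR peaks. The share was 4.99% for one-gene promoter peaks and 6.45% for windows of the same length at all TSSs. At the midpoints of divergent gaps it was 9.09% with a peak and 8.40% without, so the unbound gaps came close to the bound ones. For gaps of over 200 to 400 bp it was 10.2% with and 5.83% without. The DRE was a median of 44 bp from the summit, and 38 of the 70 were within 50 bp. Peaks with a DRE had a median IDR signal of 140 and those without 136, hardly apart. Whole gaps without a peak were not searched, so the next count has no background share beside it. At 120 of the 536 peaks with the summit inside the gap, the whole gap held a DRE. The strongest were Atat/Shc and mRpS23/CenG1A, described above, then Kap-alpha3, an importin alpha, with Son on 3R at 495 (rank 114), 368 and 129.

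The Motif 1 core (GGTCACAC) was in 41 windows (6.08%, interval 4.40 to 8.16), against 2.77% of all IDR peaks, 3.73% of one-gene promoter peaks and 5.68% of TSS windows. At the midpoints of divergent gaps the order was the other way, with 4.13% of bound and 5.82% of unbound gaps. Peaks with it had a median IDR signal of 102, below the 139 of those without. Windows with a DRE and those with a Motif 1 core were mostly different, since 3 held both, 67 the DRE alone, 38 the core alone and 566 neither. The E-box CAGCTG was in 18.1%, against 12.3% of one-gene and 13.4% of TSS windows, and in 15.4% of bound and 11.9% of unbound gap midpoints. TATAAA was in 37.8%, against 25.9% and 26.9%, and in 40.3% of bound and 39.7% of unbound gap midpoints.

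Several other motifs were less frequent at shared than at one-gene promoter peaks. GAGAG, the letters of GAGA elements, was in 17.7% of windows against 33.6% of one-gene and 24.99% of TSS windows, and in 16.4% of bound and 13.8% of unbound gap midpoints. The initiator letters TCAGT were in 29.8%, against 35.4% and 43.4%, and in 27.6% of bound and 32.5% of unbound gap midpoints. The nuclear receptor core AGGTCA was in 16 windows (2.37%, interval 1.36 to 3.83), against 3.66% of one-gene and 3.26% of TSS windows. It was in 2.31% of bound gap midpoints and 4.87% (interval 3.97 to 5.91) of unbound ones. Rearranged, as AGTGCA, the same letters were in 10.4%, against 15.0% and 11.05%. Over all IDR peaks AGTGCA was in 16.2% and AGGTCA in 3.52%. Away from promoters they were in 20.2% and 3.96% of peaks. Both spellings were thus less frequent at shared than at one-gene peaks. Whether AGTGCA is itself bound was not tested. In the gap midpoints the rearranged letters were alike, at 8.93% of bound and 8.90% of unbound. The DRE letters rearranged as ATTCGAAT went the other way, in 1.63% against 0.93% and 0.98%. The CTCF core AGGNGGCGC was in 4 windows (0.59%), against 1.33% and 0.42%.

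**Figure D5:**
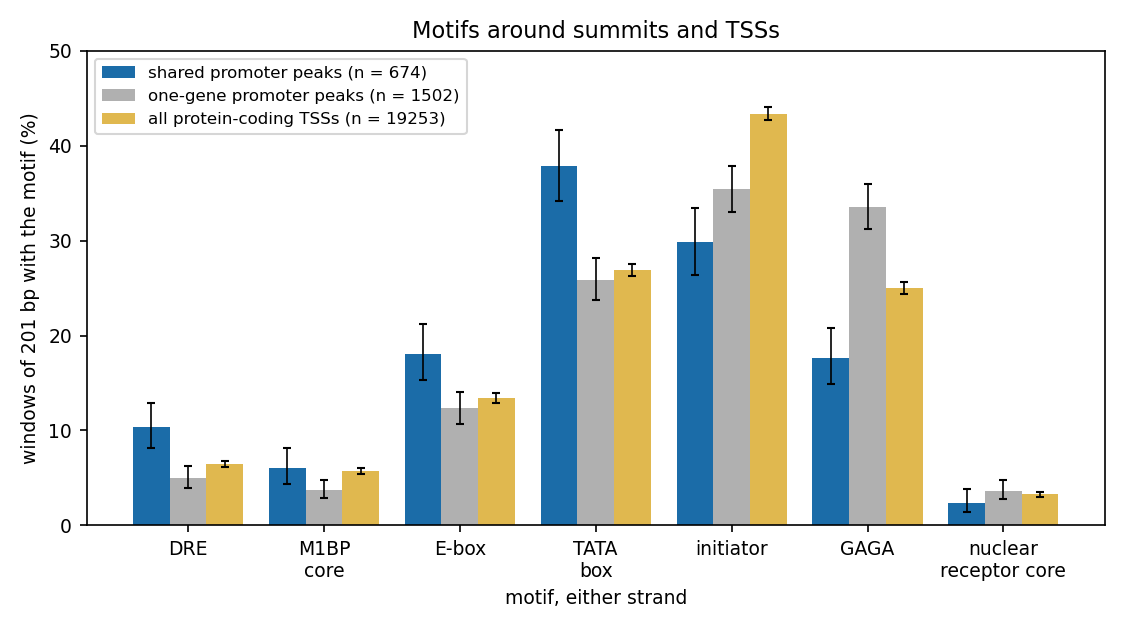
Share of windows, 100 bp to either side, with each motif on either strand (y axis, percent) around the summits of shared promoter peaks (blue) and one-gene promoter peaks (grey) and around all protein-coding TSSs (yellow), with exact 95% intervals for counting error. The blue bar is above both others for the DRE (10.4%), the E-box (18.1%) and TATAAA (37.8%), and below both for GAGAG (17.7%) and TCAGT (29.8%).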

How the data were processed

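The authors deposited narrowPeak lists for each replicate, for the pooled replicates and for the optimal IDR set, and the signal per peak (the seventh column, by the order of that format) is their peak caller's value against 1 control file shared by both replicates. The aligner, the caller and the IDR cutoff were not given in the sources used here. Lists on dm3 were not used. The labels name Hr96 as the antibody but describe the precipitation as anti-GFP, which is followed here.

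TSSs came from Ensembl release 115 of BDGP6 (dm6), and bases were read from RefSeq's copy of the same assembly. Peaks were ranked by signal. Summits of 2 lists within 100 bp were matched. Spacing used the TSS nearest to the summit on each strand. Motifs were sought on both strands. Intervals beside shares are exact Clopper-Pearson 95% intervals, and none were computed for gene families. Beside a count of 0 stands the share that 3 counts would make. The scripts were tested on simulated data.

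The members, the 16 gene families, built from gene symbols, and the 10 motifs were chosen with earlier results of these data known. Named peaks are the 10 strongest, the 3 strongest of each geometry, the 3 with the closest TSSs, the 2 strongest of each family, the 3 strongest unmatched in a replicate, those nearest to the 500 bp limit and the 4 strongest with a DRE in the gap, 1 of which is not reported here. The peaks unmatched in both replicates, those with the widest gaps, the further autophagy peaks, and those of bmm and Hsl were named after their values were seen, and printed sequences were limited to gaps of at most 300 bases. The scripts ran under Python 3.11.15, with SciPy 1.17.1 for intervals, pandas 2.3.3 and numpy 2.4.6 for tables, and matplotlib 3.10.9 for figures.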

Additional observations from a re-analysis of the deposited data

How the results depend on the processing

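Of 62 alternative values, 43 moved by less than the counting interval or spread set for them and 19 moved by more. Direction was checked only for the ratio of median signals, and shared promoter peaks kept the higher median at every setting. With TSSs within 250 bp there were 378 shared promoter peaks, with a median spacing of 243.5 bp, 1.55 times the median signal of one-gene promoter peaks (1.33 times in the report) and 83.3% matched in both replicates. With 1000 bp the spacing was 350 bp and 77.8% of divergent summits were inside the gap. With 1 TSS per gene the values were 95.3% divergent, 287 bp and 76.1% inside. In the stronger 1803 peaks the signal ratio was 1.11, 86.3% were matched in both replicates and 16.1% of annotated pairs were bound. Matching within 50 bp gave 59.2%, within 200 bp 88.9%, and among the strongest 3607 peaks 59.9%. A motif window of 50 bp to either side gave a DRE in 5.64%. Leaving out each replicate (the remaining one then gave its 3607 strongest peaks) gave signal ratios of 1.16 to 1.40, the lower one without replicate 1, 78.2% to 82.0% of summits inside the gap and 24.0% to 24.9% of annotated pairs bound. Keeping 1 peak per gene pair, chosen after seeing the data, left 604 peaks and a ratio of 1.33. No paired analysis was possible because both samples form 1 group. Read depth is unknown, so an unmatched or unbound pair cannot be told apart from one below detection.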

Other observations

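Of the 604 gene pairs, 69 had more than 1 shared promoter peak. Their closest summits were a median of 204 bp apart, with a smallest value of 199 bp and an upper quartile of 209 bp, while most peak intervals were 416 bp wide and so overlapped. The stronger peak of such a pair had a median signal of 185 and the next one 90.9. Another IDR summit lay within 250 bp of 135 of the 674 shared promoter peaks (20%), 11.6% of one-gene promoter peaks and 12.4% of all IDR peaks. The cause of the narrow range of distances was not tested. Counting 1 peak per pair was run for 7 summary values of the shared promoter peaks, none of which moved by more than the limits given above.

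Of the 2091 annotated opposite-strand pairs with no IDR summit at both TSSs, 287 (13.7%) had a summit within 500 bp of both in the pooled list of 30000, 176 (8.42%) had one in the lists of both replicates, and 37 (1.77%) had one among the 3607 strongest of both. These lists include background regions, so such summits need not be binding. At 1757 of the 2720 pairs (64.6%) the distance rule was met neither in the IDR list, nor in the pooled list, nor in both replicate lists together.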
